A study of Caenorhabditis elegans with 9 samples.

Results

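The fatty acid elongases of Caenorhabditis elegans are the enzymes named elo-1 to elo-9. Their signals were taken from every probe set whose only gene symbol in the platform annotation was one of those names. This gave 8 probe sets, 1 each for elo-1, elo-2, elo-3, elo-4, elo-5, elo-6, elo-7 and elo-9, out of 22548 probe sets that were not controls. No probe set carried elo-8 as its only symbol, so that gene was not analysed here. The probe sets of elo-5 and elo-6 end in _s_at, the array's mark for possible cross-hybridisation with related sequences, and values for these genes are uncertain in that respect.

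Whole first-stage (L1) larvae of 3 genotypes were compared on 9 Affymetrix arrays, with 3 arrays labelled as biological replicates per genotype. The groups were wild type, a strain with the loss-of-function allele ogt-1(ok430) and a strain with the loss-of-function allele oga-1(ok1207). OGT-1 is the transferase that adds O-GlcNAc, a single sugar, to proteins inside the cell, and OGA-1 takes it off. In all groups eggs freed by bleach hatched in sterile buffer, the larvae were collected at 48 h, fed OP50 bacteria on plates for 3 h and taken for total RNA. The labels give no wild-type strain name, outcrossing or number of animals, and they do not say whether replicates came from separate cultures, so p-values measure the spread between these samples.

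An elongase performs the first, condensing step of a cycle that lengthens a fatty acid in the endoplasmic reticulum, and a reductase, a dehydratase and a second reductase complete the cycle. In C. elegans, ELO-1 lengthens polyunsaturated fatty acids and ELO-2 lengthens palmitic acid. ELO-5 and ELO-6 make the monomethyl branched-chain fatty acids, which are incorporated into sphingolipids, and larvae that lack the branched-chain products of ELO-5 arrest in the first larval stage. In the RefSeq gene order of assembly WBcel235, 6 of the 9 elo genes lie on chromosome IV, 2 on III and 1 on II. The genes elo-1 and elo-7 are direct neighbours, and 3 protein-coding genes lie between elo-5 and elo-6.

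Over all probe sets, r was 0.992 to 0.997 between arrays of 1 genotype and 0.985 to 0.995 between genotypes. As a check of the labels, an oga-1 probe set (_s_at) was lower in the oga-1 mutant (log2 difference -0.75 ± 0.10 SE, limma adjusted p = 0.0181), while an ogt-1 probe set (_s_at) was higher in the ogt-1 mutant (0.70 ± 0.11, adjusted p = 0.0141). Against wild type, the remaining oga-1 probe sets differed in the oga-1 mutant by -0.58 (limma adjusted p = 0.0648) and -0.30 (0.373). The remaining ogt-1 probe set differed in the ogt-1 mutant by 0.48 (limma adjusted p = 0.187). None of these was called. The labels do not place these probes against the deleted stretches. The ogt-1 signal is therefore no check of genotype, and all directions given for the library labelled ogt-1 mutant rest on its label. The 6 measured adult markers that are vitellogenin genes or col-19 had log2 signals of 4.12 to 7.21 on all arrays, below 7.45, the median over all probe sets of their mean signal. The 14 measured intestine markers lay at or above that median on every array. In whole animals, fewer cells of a type and less RNA per cell cannot be told apart.

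Between wild type and the ogt-1 mutant 1 of the 8 elongase probe sets passed the test, that of elo-4, which fell by 0.62 on the log2 scale (SE 0.077, n = 3 arrays a group, limma adjusted p = 0.00486). Of all probe sets 2.59% passed in that comparison. In the oga-1 mutant 0 of the 8 passed, where 0.497% of all probe sets did. Within every genotype the arrays of elo-2 and elo-5 spanned a wider range than the genotype means, as did those of elo-6 in both mutants but not in wild type (range 0.52, where the means differed by up to 0.61). Across the family the median difference from wild type was -0.28 in the ogt-1 mutant, where the median of all probe sets was 0.00, and -0.16 in the oga-1 mutant, where it was 0.01. The same 3 wild-type arrays serve in both comparisons, so the 2 medians are not independent. Nor are the members, since elo-1, elo-2, elo-5 and elo-6 were all high on wild type 1 (0.24, 0.69, 0.89 and 0.32 above the genotype mean). Without that array the differences of these genes from wild type were 0.05, 0.12, 0.30 and -0.01 in the oga-1 mutant. In the ogt-1 mutant they were then -0.16, -0.21, 0.16 and -0.45.

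**Figure D1:**
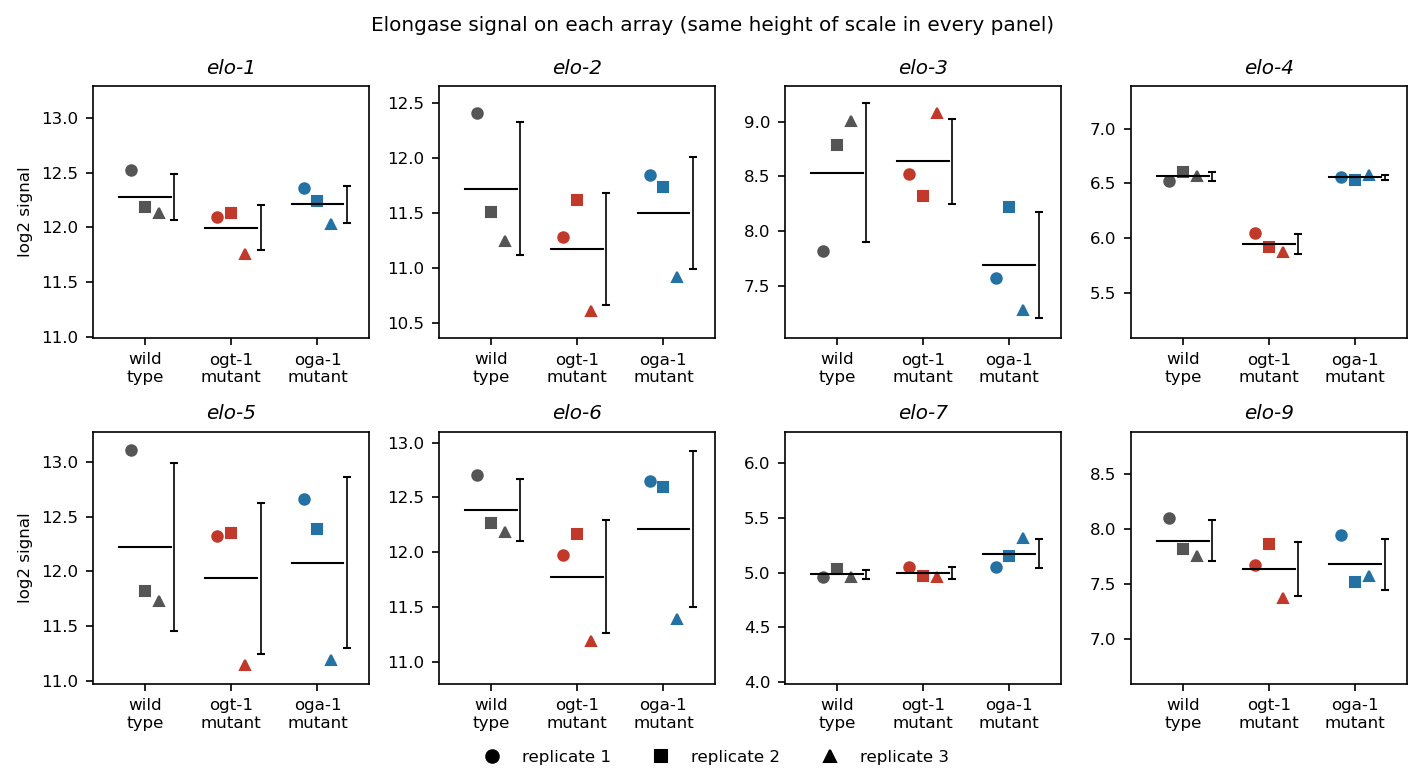
Log2 signal of each elongase on each array, by genotype, with symbols for the replicate number, a horizontal bar for the genotype mean and an error bar of 1 SD (n = 3). The 3 ogt-1 mutant arrays of elo-4 (5.87 to 6.05) lie below the other 6 (6.52 to 6.60). The arrays of elo-2, elo-3 and elo-5 are spread widely within each genotype, as are those of elo-6 in both mutants.

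The signal of elo-4 separated the ogt-1 mutant from both other genotypes. On the wild-type arrays it measured 6.52, 6.60 and 6.57, with a mean of 6.56 ± 0.042 (SD, n = 3). On the ogt-1 mutant arrays it measured 6.05, 5.92 and 5.87, with a mean of 5.95 ± 0.089. On the oga-1 mutant arrays it measured 6.55, 6.53 and 6.58, with a mean of 6.55 ± 0.025. All 3 ogt-1 mutant arrays lay below all 6 others, and the wild-type and oga-1 mutant arrays overlapped. The fall in the ogt-1 mutant corresponds to a signal 0.652 times that of wild type, with a 95% interval of -0.79 to -0.45 on the log2 scale. The ogt-1 mutant was also lower than the oga-1 mutant, by -0.61 ± 0.077 SE (limma adjusted p = 0.00491). Against wild type the oga-1 mutant differed by -0.01 (95% interval -0.18 to 0.16, limma adjusted p = 0.978). In these comparisons 1.40% of all probe sets were called lower in the ogt-1 mutant than in wild type, 1.57% lower than in the oga-1 mutant, and 0.497% were called either way between the oga-1 mutant and wild type.

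The elo-4 signal was dim, with all genotype means below 7.45, and detection above background was not assessed. Its spread within genotypes was small (residual SD 0.059, 6 degrees of freedom), and 95.1% of all probe sets had a larger one. The difference from wild type was -0.67 to -0.58 when each array was left out in turn, with limma adjusted p from 0.00859 to 0.0352. With the gap between 3-prime and 5-prime signal of control transcripts as a covariate, a measure of RNA end bias, the difference was -0.61 but the call was lost (limma adjusted p = 0.0939, and 0.514 against the oga-1 mutant). That gap was 1.43 ± 0.11 (SD, n = 3) in the ogt-1 mutant, 1.30 ± 0.043 in wild type and 1.22 ± 0.062 in the oga-1 mutant (exact permutation p = 0.2 for the ogt-1 mutant against wild type and 0.1 against the oga-1 mutant, two-sided, where 0.1 is the smallest possible). Taken alone, the gap of the ubiquitin control, the gap of the catalase probe sets and the hybridisation spike signal were each higher on all 3 ogt-1 mutant arrays than on all 3 wild-type arrays (exact permutation p = 0.1 each). The covariate averaged the gaps of ubiquitin, actin and GAPDH, and no other was tried.

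The mean signal of most intestine markers was lower in the ogt-1 mutant than in wild type, though most of these differences were not called. Of 14 measured, 12 had a difference from wild type below 0 and 2 passed the test as lower, the transcription factor gene elt-7 (-0.77 ± 0.17 SE, limma adjusted p = 0.0481) and the proton exchanger gene nhx-2 (-0.74 ± 0.16, adjusted p = 0.0444). Of all probe sets 49.3% had a difference below 0 and 1.40% were called lower. The calls of elt-7 and nhx-2 were not retried with arrays left out or with the gap covariate. The markers' summed log2 signal ranged from 156.0 to 159.2 on the ogt-1 mutant arrays, from 159.5 to 162.8 on the wild-type arrays and from 157.3 to 161.9 on the oga-1 mutant arrays. All ogt-1 mutant sums lay below all wild-type sums (exact permutation p = 0.1, two-sided, the smallest possible), and its part in the elongase differences was not tested. The summed signals of 13 epidermis markers overlapped between ogt-1 mutant and wild type (exact permutation p = 0.4), as did those of 12 body wall muscle markers (p = 0.3) and 16 adult and embryo markers (p = 0.9). Between the mutants the epidermis sums did not overlap, with the ogt-1 mutant lower (exact permutation p = 0.1). Muscle sums of the oga-1 mutant lay above those of both other genotypes (exact permutation p = 0.1 each). Intestine sums overlapped between the mutants (exact permutation p = 0.2). There 12 of the 14 intestine markers had a difference below 0, where 54.4% of all probe sets did. Limma called 1 of the markers higher in the ogt-1 mutant and 0 lower, against 1.32% and 1.57% of all probe sets. In these lists every other pair of genotypes overlapped.

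The genes closest to elo-4 over the 9 arrays were T24A6.20, dhs-11 and F13D11.3. Closeness was the root mean square distance between mean-centred log2 signals over the 9 arrays, among 6536 unmarked probe sets at or above the median signal. The distance was 0.073 for T24A6.20, 0.082 for dhs-11, which encodes a short-chain dehydrogenase, and 0.10 for F13D11.3, where the median over the 6536 was 0.34. In the ogt-1 mutant these genes differed from wild type by -0.53, -0.71 and -0.59, and in the oga-1 mutant by 0.09, -0.11 and 0.17. Because the genes were chosen by closeness to elo-4 on these same arrays, small distances and similar differences follow from the choice. They are given as a description.

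**Figure D2:**
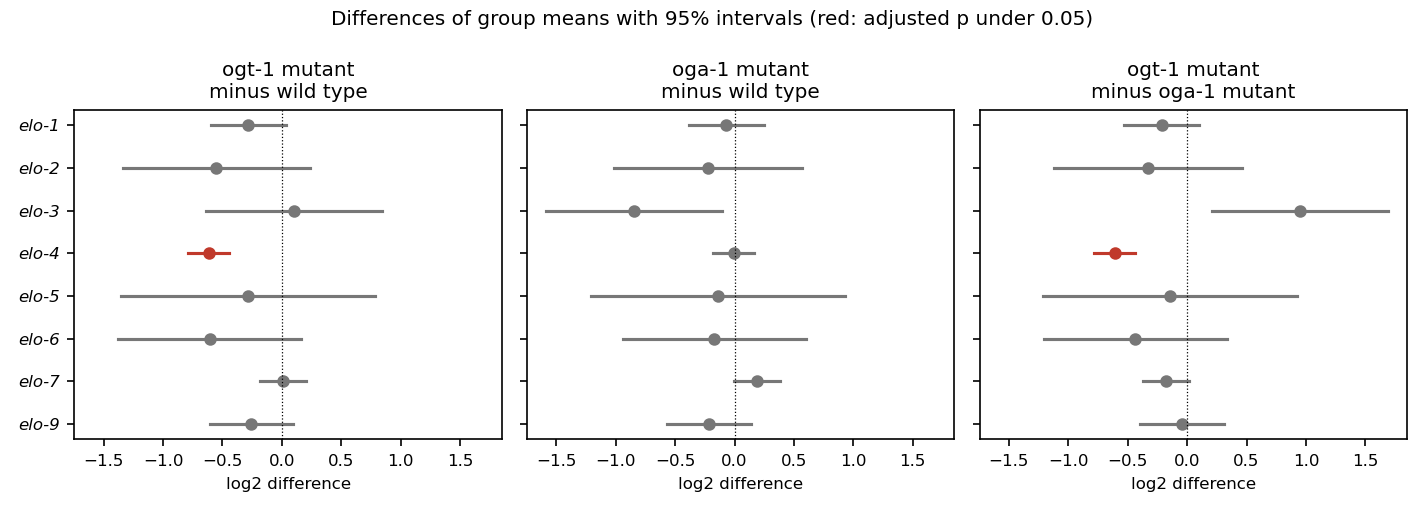
Difference of genotype means on the log2 scale for the 8 elongases in the 3 comparisons, with limma's 95% interval. Only the elo-4 differences of the ogt-1 mutant (-0.62 and -0.61) passed the adjusted threshold of 0.05, and the intervals of elo-2, elo-3, elo-5 and elo-6 are the widest.

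The branched-chain elongase gene elo-5 had the widest spread of the family. On the wild-type arrays its signal was 13.11, 11.82 and 11.73. On the ogt-1 mutant arrays it was 12.32, 12.35 and 11.14, and on the oga-1 mutant arrays 12.66, 12.39 and 11.19. Within each genotype 1 array stood far from the other two, the first in wild type (high) and the array numbered 3 in both mutants (low). Within the oga-1 mutant the highest array was 2.76 times the lowest, while the mean difference from wild type was -0.14 (95% interval -1.21 to 0.93, limma adjusted p = 0.935). The difference of the ogt-1 mutant from wild type was -0.28 (-1.35 to 0.79, adjusted p = 0.854). Only 0.217% of all probe sets had a larger residual SD than elo-5 (0.75).

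The partner elongase gene elo-6 measured 12.70, 12.26 and 12.19 in wild type. The ogt-1 mutant values were 11.97, 12.16 and 11.19. The oga-1 mutant values were 12.65, 12.60 and 11.39. All 3 ogt-1 mutant arrays lay below all 3 wild-type arrays, by a margin of hundredths between the nearest pair, and the oga-1 mutant arrays spanned both. The ogt-1 mutant differed from wild type by -0.61 ± 0.34 SE (95% interval -1.38 to 0.16, limma adjusted p = 0.453). Without ogt-1 mutant 3 the elo-6 difference was -0.32, and over each array left out in turn it ran from -0.80 to -0.32. The oga-1 mutant differed by -0.17 (-0.94 to 0.60, adjusted p = 0.885).

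The palmitate elongase gene elo-2 measured 12.41, 11.51 and 11.25 in wild type. The ogt-1 mutant values were 11.28, 11.62 and 10.61. The oga-1 mutant values were 11.85, 11.74 and 10.92. The groups overlapped in every comparison. The ogt-1 mutant differed from wild type by -0.55 (95% interval -1.34 to 0.24, limma adjusted p = 0.521) and the oga-1 mutant by -0.22 (-1.01 to 0.57, adjusted p = 0.846). The first of these was -0.21 with wild type 1 left out, -0.27 with ogt-1 mutant 3 left out, and -0.79 to -0.21 over each array left out in turn. In the ogt-1 mutant the intervals of all 3 of elo-2, elo-5 and elo-6 include the size of the elo-4 fall and also 0. At this spread these intervals therefore hold both a fall of that size and no change.

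The polyunsaturated fatty acid elongase gene elo-1 was steadier. It measured 12.52, 12.18 and 12.13 in wild type, 12.10, 12.13 and 11.76 in the ogt-1 mutant, and 12.36, 12.24 and 12.03 in the oga-1 mutant. All ogt-1 mutant arrays lay below all wild-type arrays, though the nearest pair is equal after rounding, with oga-1 mutant arrays overlapping both. The difference of the ogt-1 mutant from wild type was -0.28 ± 0.14 SE (95% interval -0.60 to 0.03, limma adjusted p = 0.381) and that of the oga-1 mutant -0.07 (-0.38 to 0.25, adjusted p = 0.889). Without wild type 1 or without ogt-1 mutant 3 the first of these was -0.16. Between ogt-1 mutant and wild type 3 of the 8 elongases (elo-1, elo-4 and elo-6) had groups that did not overlap, where 21.0% of all probe sets did so.

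The less studied elongase gene elo-3 showed another order of genotypes. It measured 7.82, 8.78 and 9.01 in wild type, 8.52, 8.32 and 9.07 in the ogt-1 mutant, and 7.58, 8.22 and 7.28 in the oga-1 mutant. All oga-1 mutant arrays lay below all ogt-1 mutant arrays, and the wild-type arrays overlapped both. The oga-1 mutant differed from wild type by -0.84 ± 0.33 SE (limma adjusted p = 0.382) and the ogt-1 mutant from the oga-1 mutant by 0.95 ± 0.33 (limma adjusted p = 0.15), so neither passed. With the control gap as a covariate the second difference was -0.07. At an unadjusted limma p under 0.05, elo-3 was the 1 elongase of 8 between oga-1 mutant and wild type, where 11.5% of all probe sets passed. It was 1 of 2, with elo-4, between the mutants, where 20.5% passed. These were also the 2 elongases whose groups did not overlap between the mutants, where 22.9% of all probe sets did not.

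The gene elo-9 measured 8.10, 7.82 and 7.75 in wild type, 7.67, 7.87 and 7.37 in the ogt-1 mutant, and 7.95, 7.52 and 7.57 in the oga-1 mutant. These groups overlapped, with differences from wild type of -0.26 ± 0.16 SE (limma adjusted p = 0.496) and -0.21 ± 0.16 (adjusted p = 0.634). The first of these was -0.15 with wild type 1 left out and -0.13 with ogt-1 mutant 3 left out. The neighbour of elo-1, elo-7, was dim on every array, at 4.96 to 5.05 in wild type and the ogt-1 mutant and 5.05 to 5.31 in the oga-1 mutant. Every oga-1 mutant array of elo-7 lay above every wild-type array (0.19 ± 0.086, adjusted p = 0.44), the 1 elongase of 8 without overlap in that comparison, where 16.1% of all probe sets did not overlap.

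In order of genotype means, wild type was highest, the oga-1 mutant in the middle and the ogt-1 mutant lowest for elo-1, elo-2, elo-4, elo-5, elo-6 and elo-9. For elo-3 the order ran from ogt-1 mutant through wild type to oga-1 mutant, and for elo-7 from oga-1 mutant through ogt-1 mutant to wild type. Of the neighbouring means in these orders, the oga-1 mutant and ogt-1 mutant means of elo-4 differed past the test's threshold, and no other neighbouring pair did. Differences in elo-1, elo-2, elo-4, elo-5 and elo-6 between oga-1 mutant and wild type turned from below 0 to above 0 when single arrays were left out.

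The spread within genotypes was shared by several elongases. For elo-1, elo-2, elo-5 and elo-6, 4 of the 8, the array numbered 3 was the lowest of its genotype in all 3 genotypes, where this held for 5.89% of all probe sets. This pattern was noticed after the values were seen and is given as a description. On ogt-1 mutant 3 these genes deviated from their genotype mean by -0.24, -0.56, -0.80 and -0.58, and on oga-1 mutant 3 by -0.18, -0.58, -0.89 and -0.82. On wild type 1 they deviated upward, by 0.24, 0.69, 0.89 and 0.32. Deviations of elo-3 on the same arrays were 0.43, -0.42 and -0.72, and those of elo-4 did not exceed 0.10 in size on any array. The mean of the intestine markers deviated in the same direction on these arrays, by -0.06 on ogt-1 mutant 3, -0.17 on oga-1 mutant 3 and 0.13 on wild type 1. It was lowest within the ogt-1 mutant on array 1 (-0.085), however, where elo-1, elo-2, elo-5 and elo-6 lay above their genotype mean by 0.10, 0.11, 0.38 and 0.20. The mean of the epidermis markers deviated the other way on the 3 arrays, by 0.095, 0.12 and -0.091. The part of either marker list was not tested. The heat map of deviations shows all 9 arrays.

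**Figure D3:**
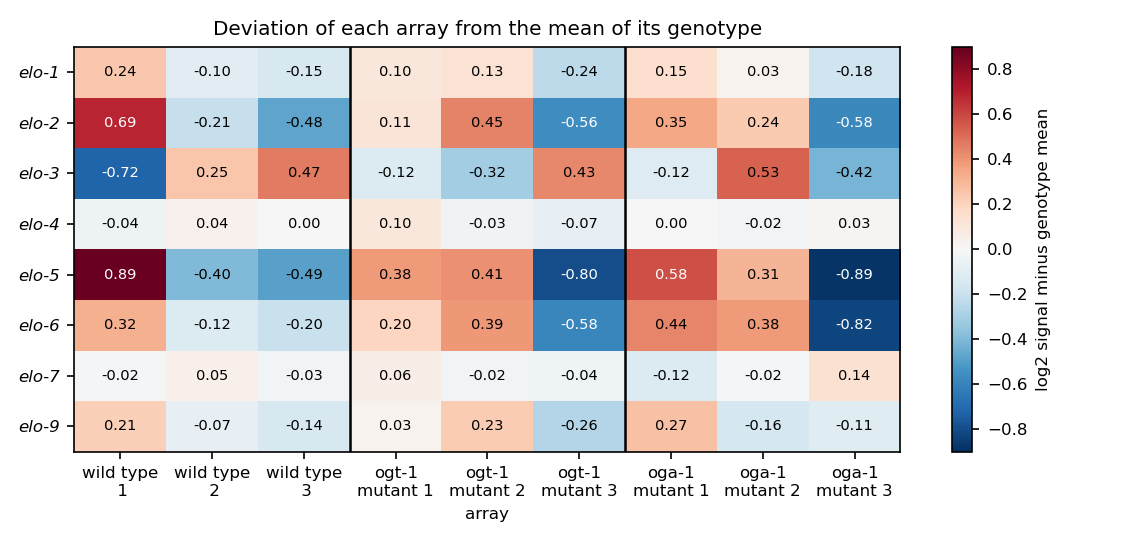
Log2 signal of each elongase on each array minus the mean of its genotype, with columns for the 9 arrays and colour and printed values for the deviation. The rows of elo-2, elo-5 and elo-6 are high on wild type 1 and low on ogt-1 mutant 3 and oga-1 mutant 3, and the elo-4 row is near 0 throughout.

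Same-numbered arrays of the ogt-1 mutant deviated together with those of wild type and of the oga-1 mutant over all probe sets (r of 0.1004 to 0.303 and 0.107 to 0.322). With the replicate number as a block in the fit, the SE of elo-5 fell from 0.48 to 0.23 and that of elo-6 from 0.34 to 0.19, and the elongase calls were still elo-4 alone. In the comparison of ogt-1 mutant with wild type, the blocked limma test gave elo-4 an adjusted p of 0.00771, elo-6 0.125, elo-1 0.149 and elo-2 0.162. The block raised the share of all probe sets called in that comparison from 2.59% to 4.59%, between the mutants from 2.89% to 5.0%, and between oga-1 mutant and wild type from 0.497% to 0.723%.

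The rest of the fatty acid pathway was followed with 6 lists of 81 measured genes. In the ogt-1 mutant 1 of them rose, 4 fell and 76 were not called, with a median difference of -0.10. Of all probe sets 1.19% rose and 1.40% fell. With the replicate block 1 rose and 9 fell, where 4.59% of all probe sets were called in either direction. In the oga-1 mutant limma called 0 of the 81, with a median of -0.04, where 0.386% of all probe sets rose and 0.111% fell. At an unadjusted limma p under 0.05 there were 27 of the 81 in the ogt-1 mutant, where 15.8% of all probe sets passed, and 9 of the 81 in the oga-1 mutant, where 11.5% did.

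The 7 partners of elongation include the enzymes that supply malonyl-CoA and complete the cycle. None was called against wild type. The signal of let-767, a ketoacyl reductase, differed in the ogt-1 mutant by -0.39 ± 0.13 SE (limma adjusted p = 0.165, marked for cross-hybridisation) and that of hpo-8, a dehydratase, by -0.29 ± 0.11 (adjusted p = 0.224). In the oga-1 mutant pod-2, the acetyl-CoA carboxylase gene, differed by -0.32 ± 0.10 (adjusted p = 0.285, marked) and art-1, an enoyl reductase, by -0.07 ± 0.13. The list medians were -0.10 and -0.03.

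Of the 7 desaturases, which insert double bonds into the chains that elongases lengthen, fat-2 fell in the ogt-1 mutant and 6 were not called. The delta-12 desaturase gene fat-2 measured 13.39, 13.53 and 13.50 in wild type and 12.94, 13.16 and 13.05 in the ogt-1 mutant, without overlap. Its difference was -0.42 ± 0.095 SE (limma adjusted p = 0.0497), which did not pass when any single array was dropped (adjusted p = 0.0517 to 0.193). Nor did it pass with quantile normalization, brighter probe sets only, the 2 groups alone or the gap covariate (limma adjusted p = 0.0588, 0.0533, 0.0708 and 0.403). It passed with the replicate block, array weights, and trend and robust moderation (0.0304, 0.0174 and 0.0242). The list median was -0.39, with 6 of 7 below 0, where 49.3% of all probe sets were. With the block fat-4 (-0.49 ± 0.10, adjusted p = 0.0347) and fat-6 (-0.63 ± 0.14, 0.0406) were called lower as well. In the oga-1 mutant the smallest p were those of fat-5 (0.33 ± 0.12, adjusted p = 0.363) and fat-4 (-0.24 ± 0.13, 0.515), and the median was -0.12.

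The 8 genes of branched-chain supply provide the primers that ELO-5 and ELO-6 lengthen, break them down or act beside them, and 0 were called in either mutant. In the ogt-1 mutant bckd-1A, a subunit of the branched-chain ketoacid dehydrogenase, differed by -0.42 ± 0.12 SE (limma adjusted p = 0.114, and 0.0427 with the block) and the acyl-CoA dehydrogenase gene acdh-1 by 0.73 ± 0.36 (adjusted p = 0.368). The oga-1 mutant's dld-1 signal differed by 0.15 ± 0.11 and bcat-1, a branched-chain aminotransferase, by -0.16 ± 0.12, and the medians of the list were -0.17 and 0.08. Of 9 lipid synthesis regulators none was called. The Mediator subunit gene mdt-15 differed by -0.31 ± 0.093 in the ogt-1 mutant (adjusted p = 0.128) and -0.33 ± 0.093 in the oga-1 mutant (adjusted p = 0.218). The adiponectin receptor-like gene paqr-2 differed in the ogt-1 mutant by 0.19 ± 0.079 and the nuclear receptor gene nhr-49 in the oga-1 mutant by -0.22 ± 0.079.

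Among 25 genes of fatty acid beta-oxidation, which shortens the chains, acs-2 rose, acox-3 fell and 23 were not called in the ogt-1 mutant, with a list median of -0.02. The acyl-CoA synthetase gene acs-2 measured 9.93, 9.30 and 9.13 in wild type and 10.69, 10.57 and 10.75 in the ogt-1 mutant. It rose by 1.21 ± 0.22 SE (limma adjusted p = 0.0252). The call was lost when wild type 2, wild type 3 or any single ogt-1 mutant array was dropped (limma adjusted p = 0.0518 to 0.114). The acyl-CoA oxidase gene acox-3 (marked) fell by 1.05 on the log2 scale (SE 0.23, adjusted p = 0.0468), and passed on dropping ogt-1 mutant 2 but no other single array (0.0517 to 0.156). With the control gap as a covariate neither acs-2 nor acox-3 passed (limma adjusted p = 0.306 and 0.496). With the block maoc-1 (-0.58 ± 0.12) and dhs-28 (-0.74 ± 0.16), genes of peroxisomal beta-oxidation, were called lower too. For ech-7 the oga-1 mutant differed by -0.51 ± 0.17 and ech-1.1 by -0.50 ± 0.18, not called, and the median was -0.03.

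Sphingolipids and glycerolipids take up long-chain fatty acids, and of 25 genes for their synthesis 2 fell and 23 were not called in the ogt-1 mutant. The ceramide synthase gene hyl-1 (marked) measured 9.42, 9.44 and 9.33 in wild type, 8.22, 8.54 and 8.35 in the ogt-1 mutant and 8.96, 9.01 and 8.83 in the oga-1 mutant. These 3 groups did not overlap, with the ogt-1 mutant lowest. It fell by 1.03 on the log2 scale in the ogt-1 mutant (SE 0.098, limma adjusted p = 9.34e-04) and was called without each array in turn, with adjusted p up to 0.0096. The oga-1 mutant differed by -0.46 ± 0.098 (adjusted p = 0.0986). The gene sptl-1, which encodes a subunit of serine palmitoyltransferase, fell by 0.58 in the ogt-1 mutant (SE 0.099, adjusted p = 0.0181), and did not pass with wild type 2, ogt-1 mutant 1 or ogt-1 mutant 3 dropped (0.0656 to 0.0965). With the control gap as a covariate sptl-1 did not pass (limma adjusted p = 0.333), while hyl-1 did (0.0358). For cgt-3 the oga-1 mutant differed by -0.35 ± 0.083 (adjusted p = 0.135), and the medians of the list were -0.14 and -0.09.

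**Figure D4:**
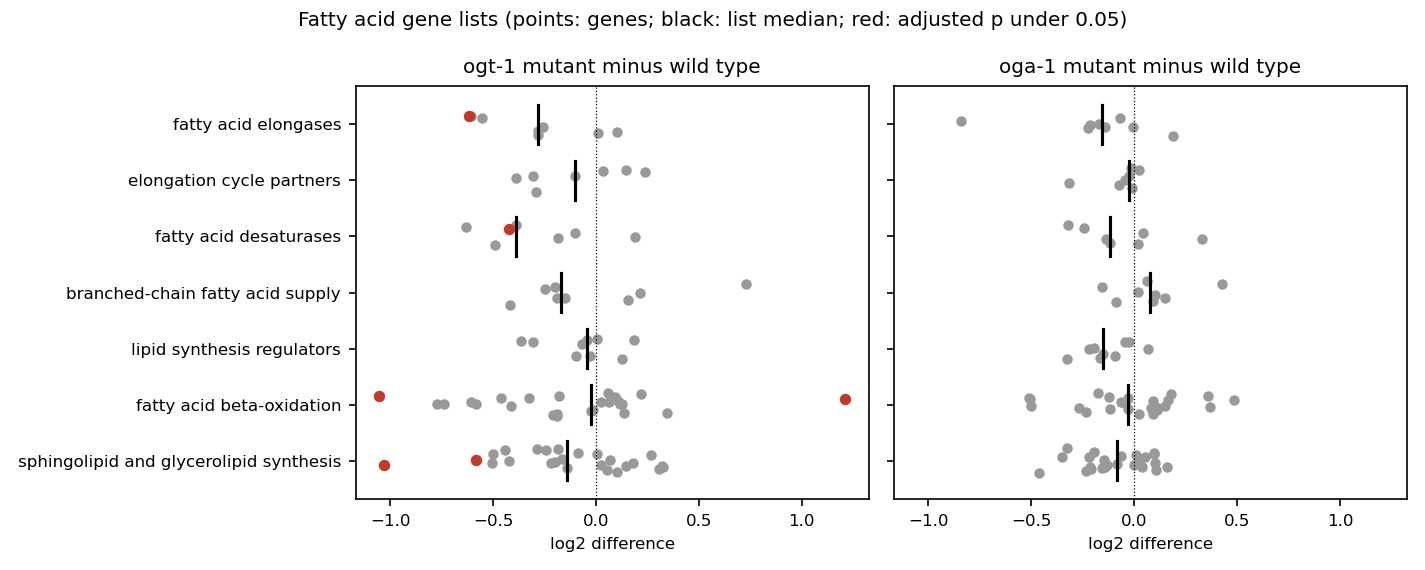
Log2 difference from wild type of each elongase and of each gene in the 6 other fatty acid lists, for the ogt-1 mutant (left) and the oga-1 mutant (right), with black bars for list medians. In the ogt-1 mutant the called genes (red) are elo-4, fat-2, acs-2, acox-3, hyl-1 and sptl-1, and in the oga-1 mutant there are none.

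Between the mutants, 3 of the 81 list genes were called, 1 higher and 2 lower in the ogt-1 mutant, against 1.32% and 1.57% of all probe sets. They were named after their values were seen. These were pod-2 (0.46 ± 0.10 SE, limma adjusted p = 0.0457), hyl-1 (-0.57 ± 0.098, 0.0177) and sptl-1 (-0.45 ± 0.099, 0.0434). With the block 5 were called higher and 5 lower, where 5.0% of all probe sets were called in either direction.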

How the data were processed

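The deposited table gives 1 log2 signal per probe set and array. MAS5, RMA and Partek are named, without versions or roles, per the submitters' processing notes, and no label states the log base or the scaling. The values (3.74 to 14.9, array medians 7.42 to 7.47) were taken as log2 on 1 scale, which hides any shift shared by the bulk of genes. Tests excluded the 77 control probe sets. Probe sets were named through the platform annotation, with symbols updated through the RefSeq table of WBcel235 (20701 of 20766 with 1 symbol matched). Where a list gene had several probe sets, the one with the highest mean stood for it. The number of arrays limits the precision.

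Limma 3.58.1 in R 4.3.3 (lmFit, eBayes) was fitted to all 9 arrays with a coefficient per genotype, 6 residual and 3.92 prior degrees of freedom, and Benjamini-Hochberg adjustment over 22548 probe sets, called at an adjusted p under 0.05. Differences are first minus second group. The fit was also run on simulated data with independent noise on each array. Those data lack the deviations that same-numbered arrays share here, so the simulation cannot show how the fit handles them. Named were all elo genes and, per list and mutant, up to 4 called genes by smallest p, or the 2 with the smallest p where none was called. Members and lists were chosen with earlier results of these data known. The replicate numbers were checked by correlating deviations from group means. All 3 correlations were over 0.1 for the ogt-1 mutant with each other group (lowest 0.1004, just over that limit). This did not hold for oga-1 mutant with wild type (lowest 0.0052). Blocked values of single genes are therefore given for the ogt-1 mutant comparisons. For oga-1 mutant against wild type the share of all probe sets called is given. The blocked fit used all 9 arrays, so it also paired oga-1 mutant with wild type.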

Additional observations from a re-analysis of the deposited data

How the results depend on the processing

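The elo-4 calls were kept under every alternative in which elo-4 was tested except the control gap as a covariate. The count of elongases called was 0 in both ogt-1 mutant comparisons with that covariate, and 0 with only probe sets at or above the median signal, where elo-4 and elo-7 were not tested. Leaving out each array gave 1 elongase called in both ogt-1 mutant comparisons and 0 between oga-1 mutant and wild type. Of 402 elongase differences over all settings, 360 kept direction and side of the threshold, 2 lost the call and 40 changed direction, 0 of these called.

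For ogt-1 mutant against wild type, all probe sets called were 584, and 1295 with array weights, 270 with only the 2 groups compared, 49 with the gap covariate, 1034 with the replicate block, 262 without 3 arrays that stood apart (wild type 1, ogt-1 mutant 1 and oga-1 mutant 3, chosen after seeing the data), and 138 to 533 without each array. Between the mutants they were 652, and 336, 9, 1128, 188 and 255 to 803 under the last 5 of these. For oga-1 mutant against wild type they were 112, and 46 with only the 2 groups, 25 with the covariate, 9 without the 3 arrays, 65 with brighter probe sets and 27 to 96 without each array. List genes called in the ogt-1 mutant were 5, and 10 with array weights, 3 with 2 groups, 1 with the gap covariate, 10 with the block, 3 without the 3 arrays and 1 to 4 without each array. Between the mutants they were 3, and 1, 0, 10, 0 and 0 to 6 under the last 5. For oga-1 mutant against wild type they were 0, and 0 to 1. The causes were not tested.

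The changes of direction were all in differences that were not called. With array weights, against wild type, the ogt-1 mutant gave -0.17 for elo-3, 0.0334 for elo-5 and -0.0071 for elo-7, the oga-1 mutant 0.0168 for elo-1, 0.0528 for elo-2, 0.22 for elo-5 and 0.0342 for elo-6, and the mutants differed by 0.041 for elo-9. Quantile normalization gave -0.0046 for elo-7 (ogt-1 mutant). The gap covariate gave -0.53 for elo-3 (ogt-1 mutant) and, between the mutants, 0.19 for elo-2, -0.0747 for elo-3, 0.27 for elo-5 and 0.36 for elo-9. Without the 3 arrays the ogt-1 mutant gave -0.19 for elo-3 and -0.029 for elo-7, and the oga-1 mutant 0.14 for elo-1, 0.41 for elo-2, 0.75 for elo-5 and 0.40 for elo-6. Leaving out each array gave, for the oga-1 mutant, -0.14 to 0.0536 (elo-1), -0.46 to 0.12 (elo-2), -0.0298 to 0.0124 (elo-4), -0.43 to 0.30 (elo-5) and -0.39 to 0.24 (elo-6). It gave, for the ogt-1 mutant, -0.25 to 0.34 (elo-3), -0.53 to 0.16 (elo-5) and -0.019 to 0.0348 (elo-7), and between the mutants -0.59 to 0.26 (elo-5) and -0.16 to 0.091 (elo-9).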

Other observations

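The genes whose signals followed the widely spread elongases most closely over the 9 arrays were looked up after the values were seen, by the same distance as for elo-4, and are given as values. For elo-5 they were elo-2 (distance 0.23), hacd-1, a hydroxyacyl-CoA dehydrogenase gene (0.23), and T19D12.4 (0.26), where the median over 6536 probe sets was 0.64. For elo-6 they were the acyl-CoA synthetase gene acs-14 (0.19), the C-type lectin gene clec-56 (0.19) and elo-2 (0.19). For elo-2 they were the cytochrome P450 gene cyp-33C8 (0.19), acs-14 (0.20) and maoc-1 (0.20), and for elo-3 they were atg-9 (0.14), F53A2.9 (0.16) and pptr-1 (0.26). In the beta-oxidation list, 9 of 25 genes had the array numbered 3 lowest in all 3 genotypes, as did 3 of 8 in branched-chain supply, 2 of 7 desaturases, 1 of 7 elongation partners, 1 of 9 regulators, 3 of 25 in sphingolipid and glycerolipid synthesis, 2 of 14 intestine markers, and 0 of the 13 epidermis, 12 body wall muscle and 16 adult and embryo markers, against 5.89% of all probe sets. In wild type hacd-1 measured 11.47 on the first array and 10.23 and 10.03 on the others.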
